A study of Mus musculus with 50 samples.

Results

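Stroke can start with a blocked artery or with bleeding into the brain, and the results here concern how far the serum microRNA (miRNA) response to the first differs from the response to the second. The quantity described is the interaction: the log2 fold change of MCAO over MCAO_Sham minus the log2 fold change of ICH over ICH_Sham. A positive interaction means that a miRNA was higher after ischemic stroke, relative to its own sham operation, than it was after hemorrhage relative to its own sham operation. The contrast used 20 of 25 serum libraries, 5 in each of 4 groups, taken from 40 of the 50 sequencing run columns of the series. All groups were C57BL/6 mice aged 8 to 12 weeks. MCAO animals had the left-sided middle cerebral artery blocked with a filament during 30 min, and their blood was drawn once the vessel had been open again for 150 min. MCAO_Sham animals were prepared in the same way, with no filament placed in that artery. ICH animals had 20 µL of their own blood infused into the striatum through a needle. In ICH_Sham animals the needle was placed and no fluid was injected. For the ICH model the interval between infusion and blood sampling is not given in the sources used here, so the kind of stroke and the time of sampling cannot be told apart. The infused blood is itself a source of blood cell miRNAs in the brain that the other groups do not have. A library is named here by its group and the replicate number of its label, and since no label states that every library is from its own animal, p-values refer to the variation among these libraries, part of which may be technical.

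A miRNA is a short RNA cut from a hairpin precursor that guides silencing proteins to messenger RNAs, mainly by pairing of its seed, bases 2 to 8 from its 5′ end. Serum holds miRNAs that blood cells, endothelium and solid organs release in vesicles, in protein complexes or on cell death, and many of them mark the tissue that makes them. An operation releases miRNAs too, from skin, muscle and blood cells, and the sham groups carry that part. Because the quantity of interest subtracts each sham group, a miRNA can differ between the models through its stroke libraries, through its sham libraries or through both, and the stroke and sham levels are therefore given side by side. In serum, a larger release and a slower clearance of a miRNA cannot be told apart.

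The results turned on the following mature miRNAs, printed as RefSeq gives them for mouse GRCm38.p6, with the seed in capitals. The first pair passed the test of the interaction, and the others are families whose kept members had interactions of 1 sign.
miR-1298-5p: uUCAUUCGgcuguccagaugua
miR-615-3p: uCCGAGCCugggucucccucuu
miR-182-5p: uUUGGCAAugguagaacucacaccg
miR-183-5p: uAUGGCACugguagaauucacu
miR-200b-3p: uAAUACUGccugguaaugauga
miR-200c-3p: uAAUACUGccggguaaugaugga
miR-200a-3p: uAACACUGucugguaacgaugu
miR-141-3p: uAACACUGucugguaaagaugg
miR-10a-5p: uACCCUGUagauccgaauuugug
miR-10b-5p: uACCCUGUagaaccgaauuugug
miR-203-3p: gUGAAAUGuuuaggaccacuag
miR-205-5p: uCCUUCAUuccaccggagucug
The mature miR-1298-5p lies at chrX:147064918-147064939 on the plus strand, in an intron of Htr2c, the serotonin 2C receptor gene. The mature miR-615-3p lies at chr15:103014969-103014990 on the plus strand, in an intron of the homeobox gene Hoxc5. miR-182-5p and miR-183-5p come from neighbouring hairpins on the minus strand, the mature sequences lying at chr6:30165962-30165986 and chr6:30169711-30169732, with no annotated gene on that strand.

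Of the 1892 miRNA entries in the count table, 925 had a count, and 199 had enough counts to be tested, which together held 99.5% of all counts. Library totals were 72222 to 315646 counts in MCAO, 51338 to 182763 in MCAO_Sham, 92040 to 156842 in ICH and 75052 to 183112 in ICH_Sham. Levels are given as CPM, a library's counts scaled to a common total, after TMM scaling, a correction for libraries in which a few miRNAs take many of the reads. A few libraries stood apart. In MCAO 2, miR-148a-3p reached 687119 CPM on this scale, against 72741 to 209260 CPM in the other 4 MCAO libraries, and in ICH_Sham 1 the liver miRNA miR-122-5p reached 448257 CPM, against 33172 to 83531 CPM in the other ICH_Sham libraries. ICH 3 had the highest keratinocyte miRNAs of the 20 libraries.

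With edgeR's quasi-likelihood test and p-values adjusted by the Benjamini-Hochberg method, 2 of 199 miRNAs (1.01%) had an interaction past the adjusted threshold of 0.05, miR-1298-5p above 0 and miR-615-3p below 0. At an unadjusted p under 0.05 there were 33 (16.6% of those tested), 17 above 0 (8.54%) and 16 below 0 (8.04%), whereas 9.95 would reach that level by chance alone. The number depended on single libraries, at 19 without MCAO 2 and 49 without MCAO 5. Without the 3 libraries of lowest TMM factor it was 12, close to that chance number. Over all 199 miRNAs the median interaction was -0.01 on the log2 scale, with 97 above 0 and 102 below. The median standard error was 0.390, and for 59 of 199 miRNAs the whole 95% interval lay within ±1. A miRNA outside that count may therefore differ between the models by more than 1 log2 unit without having passed.

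**Figure D1:**
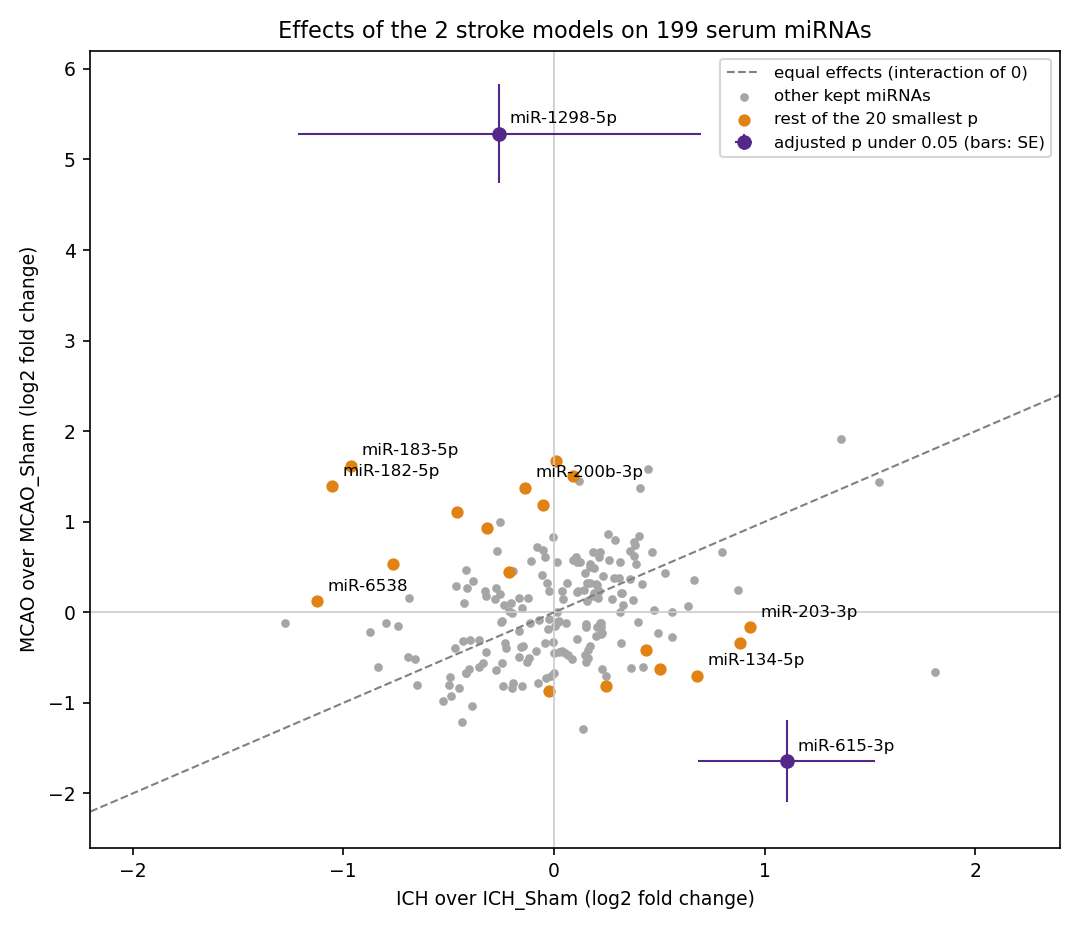
Log2 fold change of ICH over ICH_Sham (horizontal) against log2 fold change of MCAO over MCAO_Sham (vertical) for the 199 tested miRNAs, with the diagonal of equal effects; error bars are standard errors of the 2 called miRNAs. miR-1298-5p stands far above the diagonal at an MCAO effect of 5.29, and miR-615-3p stands below it at an MCAO effect of -1.64 and an ICH effect of 1.10.

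The miRNAs with the smallest p mostly had effects of opposite sign in the 2 models. Of the 33 with an unadjusted p under 0.05, 27 had opposite signs, 13 with a positive MCAO effect and a negative ICH effect and 14 the reverse, beside 80 of all 199. This count is a description, since a large difference between 2 effects favours opposite signs. In 27 of the 33 the MCAO effect was the larger of the pair in size, as it was in 137 of 199. In 23 of the 33 the stroke groups differed from each other by more than the sham groups did, and in the other 10 the sham groups differed by more. Tested directly with edgeR, MCAO minus ICH passed for 29 of 199 miRNAs and MCAO_Sham minus ICH_Sham for 0 of 199.

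miR-1298-5p had the largest interaction. This miRNA is made with several others from introns of Htr2c, whose transcript is known to be very abundant in the choroid plexus, the tissue that makes cerebrospinal fluid. It was at 235, 1669, 2232, 1736 and 763 CPM in MCAO and at 0, 0, 25.2, 56.9 and 84.7 CPM in MCAO_Sham. In the other model it was at 20.0, 9.35, 29.8, 5.76 and 7.90 CPM in ICH and at 7.53, 16.7, 16.5, 9.91 and 35.3 CPM in ICH_Sham. All 5 MCAO libraries lay above every other library, MCAO 1 being the lowest of them, whereas ICH and ICH_Sham overlapped over nearly their whole range. MCAO lay wholly above MCAO_Sham for 5 of all 199 miRNAs. The interaction was 5.55 ± 1.27 (SE; 95% interval 2.95 to 8.14; adjusted p = 0.0148, edgeR). It was made up of a rise of 5.29 ± 0.55 in MCAO over its sham and an ICH effect of -0.26 ± 0.96 (adjusted p = 0.950). MCAO minus ICH was 6.52 ± 0.59 and MCAO_Sham minus ICH_Sham, the sham difference, was 0.97 ± 0.85 (adjusted p = 0.655). Outside MCAO the miRNA was near the limit of detection. Its summed counts were 923 in MCAO, 16 in MCAO_Sham, 8 in ICH and 9 in ICH_Sham. The ICH effect and its wide error therefore rest on few reads. No library outside MCAO held more than 8 counts, so the miRNA passed the count filter through its MCAO libraries alone.

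The other miRNAs of the same introns had too few counts to be tested. Summed over 5 libraries, miR-448-3p had 97 counts in MCAO, 1 in MCAO_Sham, 3 in ICH and 1 in ICH_Sham. miR-1264-3p had 38, 2, 1 and 0 in the same order of groups, and miR-1298-3p, from the opposite arm of the called hairpin, had 12, 0, 1 and 1. In MCAO 1, the library with the least miR-1298-5p of its group, miR-448-3p had 0 counts and miR-1264-3p had 1. miR-1912-3p had 1 count, in MCAO, and both arms of miR-764 had 0 counts in all 4 groups. Of the markers of choroid plexus and pigmented eye epithelium, 2 were kept, with a median interaction of 0.34, and neither had an unadjusted p under 0.05. For miR-204-5p and miR-184-3p summed, the MCAO libraries spanned 7955 to 11787 CPM, the MCAO_Sham libraries 7151 to 20279, the ICH libraries 5301 to 12702 and the ICH_Sham libraries 10575 to 23667. Most of this sum was miR-184-3p, at a mean of 11788 CPM against 504 for miR-204-5p, and the 2 went opposite ways in MCAO. The MCAO effect was 0.55 ± 0.32 for miR-204-5p and -0.51 ± 0.29 for miR-184-3p (adjusted p = 0.204 each, edgeR). Mean levels of miR-204-5p were 728, 490, 399 and 397 CPM in MCAO, MCAO_Sham, ICH and ICH_Sham.

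miR-615-3p had the second called interaction, in the other direction. It is encoded within the Hoxc cluster, whose homeobox genes pattern the trunk and limbs. Its level was 97.4, 50.1, 53.7, 124 and 191 CPM in MCAO and 483, 177, 232, 266 and 392 CPM in MCAO_Sham. In the other model it was 139.9, 224.4, 854, 184 and 403 CPM in ICH and 75.3, 234, 124, 129 and 282 CPM in ICH_Sham. MCAO and MCAO_Sham overlapped in 1 library each, and ICH and ICH_Sham overlapped, with ICH 3 alone above 500 CPM. The interaction was -2.75 ± 0.62 (SE; 95% interval -4.01 to -1.48; adjusted p = 0.0148, edgeR). miR-615-3p fell by 1.64 ± 0.45 on the log2 scale in MCAO over its sham (adjusted p = 0.0187), and its ICH effect of 1.10 ± 0.42 did not pass (adjusted p = 0.462). Without ICH 3 the interaction was -2.18 and still passed (adjusted p = 0.0393), and the ICH effect was 0.53. The fall in MCAO did not pass without MCAO 2, MCAO 3, MCAO_Sham 1 or MCAO_Sham 7, where it was -1.56 to -1.45 (adjusted p = 0.0548 to 0.131, edgeR). Counts were low here too, with 59, 141, 207 and 90 reads in MCAO, MCAO_Sham, ICH and ICH_Sham.

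**Figure D2:**
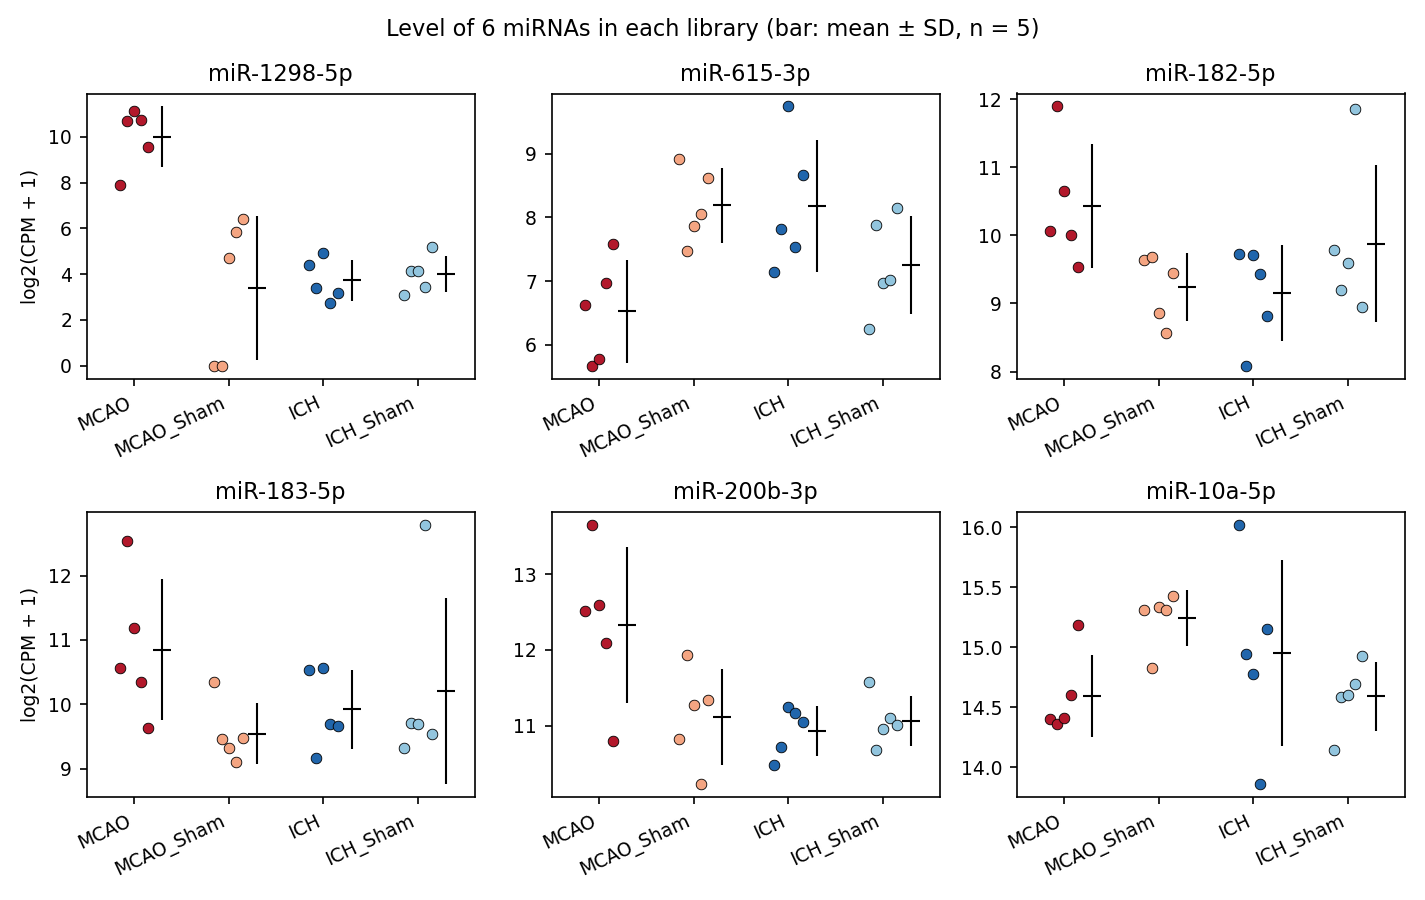
Level of 6 miRNAs as log2(CPM + 1), with 1 point per library of MCAO, MCAO_Sham, ICH and ICH_Sham and the mean ± SD of each group (n = 5) beside it. miR-1298-5p separates MCAO, at 235 CPM or more, from all other libraries, at 84.7 CPM or less, whereas for miR-182-5p single libraries at 3803 CPM in MCAO and 3698 CPM in ICH_Sham stand above the rest of their groups.

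The call of miR-1298-5p held within both ranges of library index tags in which it could be tested, and that of miR-615-3p within 1 of them. The tags of ICH and of ICH_Sham form ranges of their own, so tag and group cannot be told apart in that model, but MCAO and MCAO_Sham each have tags in a lower range (MCAO 2, 3 and 4 and MCAO_Sham 4 and 7) and in a higher one. With the MCAO part taken within the lower tags the interaction of miR-1298-5p was 5.53 (adjusted p = 0.00262), and within the higher tags it was 5.13 (adjusted p = 0.0301, both edgeR). For miR-615-3p it was -3.14 within the lower tags (adjusted p = 0.0294) and -2.22 within the higher tags, where it did not pass (adjusted p = 0.317). These within-range fits were chosen after the data were seen.

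miR-10a-5p and miR-10b-5p, the other kept miRNAs of Hox gene clusters, share 1 seed and differed from each other little. Their mature sequences lie at chr11:96317186-96317208 and, in introns of Hoxd3 and Hoxd4, at chr2:74726074-74726096. miR-10a-5p was at 21692, 20991, 21817, 24887 and 37165 CPM in MCAO and at 40685, 29111, 41301, 40600 and 44087 CPM in MCAO_Sham, so that 4 of 5 MCAO libraries lay below every MCAO_Sham library. In ICH it was at 66350, 31479, 28133, 14869 and 36403 CPM and in ICH_Sham at 18073, 24536, 24900, 26428 and 31207 CPM, with ICH 4 below all of ICH_Sham and 3 of the other 4 ICH libraries above all of it. The interaction was -1.13 ± 0.38 for miR-10a-5p and -0.85 ± 0.36 for miR-10b-5p, and neither passed (adjusted p = 0.139 and 0.272, edgeR). All 3 kept members of the Hox list were below 0 at an unadjusted p under 0.05, beside 8.04% of all tested miRNAs in that direction, with a median of -1.13.

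The miR-183 cluster and the miR-200 family had the largest positive interactions after miR-1298-5p. The cluster is best known from sensory cells of the retina, inner ear and dorsal root ganglia and is also made in epithelia. miR-182-5p was at 1072, 3803, 1611, 1025 and 738 CPM in MCAO and at 799, 824, 464, 379.6 and 699 CPM in MCAO_Sham. It was at 849, 271, 834, 691 and 450.1 CPM in ICH and at 881, 584, 769, 3698 and 494 CPM in ICH_Sham. In MCAO 4 of 5 libraries lay above the whole of MCAO_Sham, whereas the excess of ICH_Sham over ICH was carried by ICH_Sham 4. The interaction was 2.45 ± 0.67 for miR-182-5p (adjusted p = 0.0717) and 2.58 ± 0.81 for miR-183-5p (adjusted p = 0.137, edgeR). Without ICH_Sham 4 these values were 1.55 and 1.18, and without MCAO 2 they were 1.88 and 1.90. miR-183-5p was at 1510, 5933, 2332, 1298 and 789 CPM in MCAO and at 1299, 707, 640.0, 550.4 and 709 CPM in MCAO_Sham, against 1479, 570.3, 1509, 829 and 805 CPM in ICH and 640.4, 835, 827, 7068 and 741 CPM in ICH_Sham. The same pair of libraries, MCAO 2 and ICH_Sham 4, was highest for both. Over 15 fits with other settings, among them those within each index tag range, the MCAO effect of miR-182-5p spanned 0.43 to 1.90 and passed in 2. That of miR-183-5p spanned 0.44 to 2.25 and passed in 1. miR-96-5p, the remaining member, had 5, 0, 1 and 3 counts in MCAO, MCAO_Sham, ICH and ICH_Sham and was not tested.

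The miR-200 family keeps epithelial cells in their joined state by repressing the transcription factors Zeb1 and Zeb2. All 7 of its kept members had interactions above 0, beside 97 of all 199, with a median of 1.42. The family comes from 2 loci, on chromosome 4 (miR-200b, miR-200a and miR-429) and on chromosome 6 (miR-200c and miR-141), and members of both were among them. Of the 7, 4 had an unadjusted p under 0.05, beside 8.54% of all tested miRNAs in that direction. miR-200b-3p was at 5845, 12903, 6214, 4364 and 1768 CPM in MCAO and at 1815, 3898, 2469, 1196 and 2583 CPM in MCAO_Sham. It was at 1419, 1674, 2432, 2298 and 2108 CPM in ICH and at 3051, 1636, 1976, 2191 and 2059 CPM in ICH_Sham. In MCAO all libraries but MCAO 5 lay above every MCAO_Sham, ICH and ICH_Sham library, and the ICH and ICH_Sham ranges overlapped in large part.

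The interaction was 1.51 ± 0.49 for miR-200b-3p, 1.56 ± 0.51 for miR-200c-3p (adjusted p = 0.137 each), 1.42 ± 0.48 for miR-200a-3p (adjusted p = 0.139) and 1.66 ± 0.71 for miR-141-3p (adjusted p = 0.288, edgeR). miR-200a-3p rose in MCAO over its sham by 1.50 ± 0.34 (adjusted p = 0.00985), miR-200b-3p by 1.37 ± 0.35 (adjusted p = 0.0137) and miR-141-3p by 1.67 ± 0.46 (adjusted p = 0.0187), 3 of the 15 miRNAs (7.54%) that edgeR called in that comparison. Their ICH effects were 0.09 ± 0.34, -0.14 ± 0.35 and 0.01 ± 0.50. Without MCAO 2, the library with the most of each of them, the interaction of miR-200b-3p was 1.03 and that of miR-200a-3p 0.98. The rises in MCAO then did not pass, at 1.06 for miR-200a-3p, 0.89 for miR-200b-3p and 1.22 for miR-141-3p (adjusted p = 0.0806, 0.183 and 0.183, edgeR), and that of miR-141-3p did not pass without MCAO_Sham 1 or MCAO_Sham 7 (adjusted p = 0.0514 and 0.0621). Without MCAO 5, the library with the least of them in MCAO, miR-200a-3p, miR-200b-3p and miR-200c-3p passed together with miR-182-5p, miR-10a-5p, miR-674-3p, miR-1249-3p and the 2 called miRNAs, 9 in all. Over 15 fits with other settings, among them those within each index tag range, the MCAO effect of miR-200a-3p spanned 0.76 to 2.12 and passed in 12. That of miR-200b-3p spanned 0.72 to 1.63 and passed in 11. For miR-141-3p it spanned 0.89 to 2.26 and passed in 9 of 14 such fits.

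**Figure D3:**
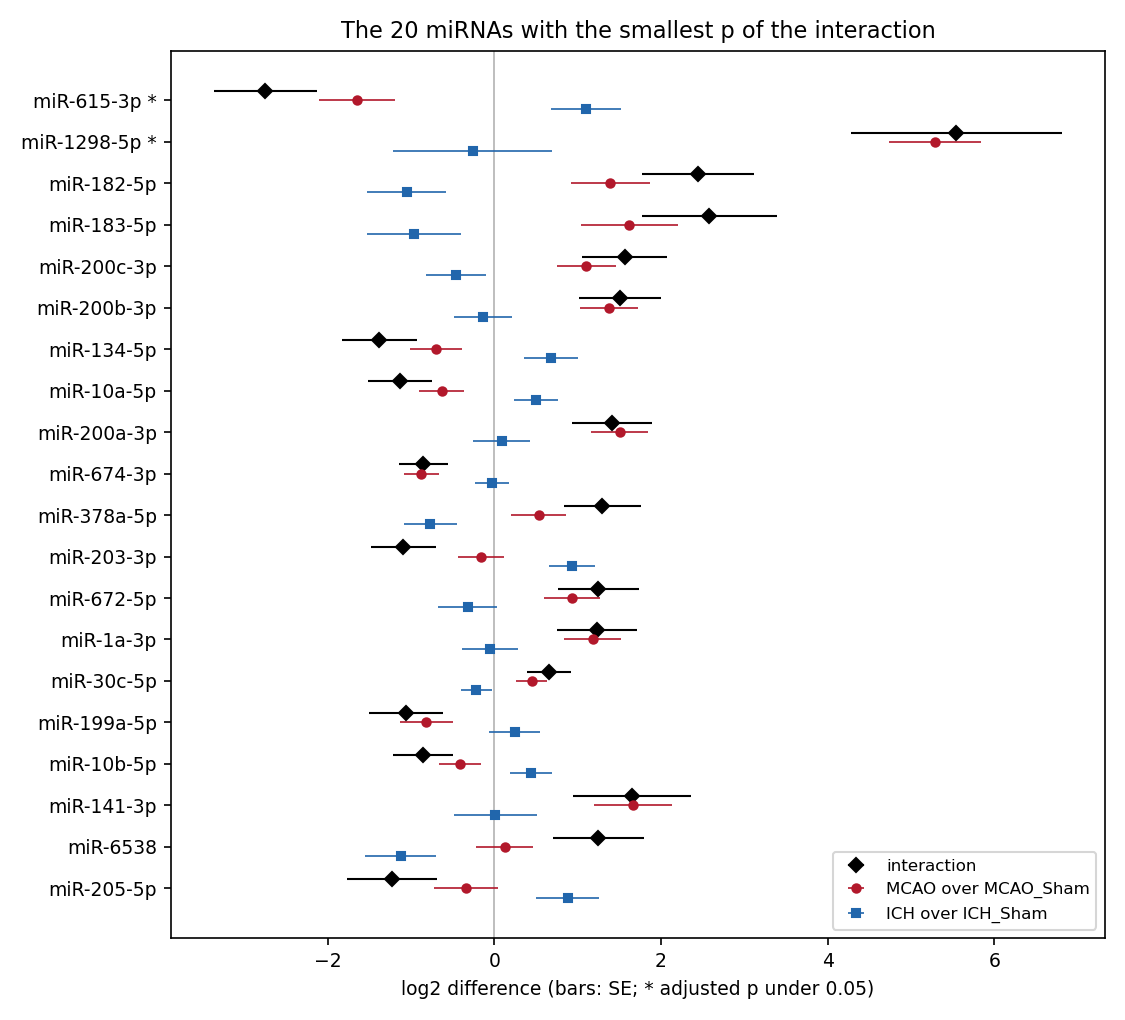
Interaction, MCAO effect and ICH effect (log2, with standard errors as bars) of the 20 miRNAs with the smallest interaction p, asterisks marking an adjusted p under 0.05. The interactions of miR-1298-5p (5.55) and miR-615-3p (-2.75) lie furthest from 0, and for 17 of the 20 the MCAO and ICH effects have opposite signs.

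Other epithelial miRNAs went the other way. miR-203-3p and miR-205-5p are made by keratinocytes of the skin and by other stratified epithelia, and both had interactions below 0. miR-203-3p was at 4676, 5312, 6566, 6092 and 5317 CPM in MCAO and at 6395, 6006, 7014, 4271 and 7558 CPM in MCAO_Sham. It was at 10184, 10462, 28302, 6720 and 17981 CPM in ICH and at 7127, 9325, 7674, 7316 and 7223 CPM in ICH_Sham. Of the ICH libraries 4 of 5 lay above every ICH_Sham library, while the MCAO libraries lay within the range of MCAO_Sham. The interaction was -1.09 ± 0.39 for miR-203-3p (adjusted p = 0.145) and -1.23 ± 0.54 for miR-205-5p (adjusted p = 0.288, edgeR). Both unadjusted p were under 0.05, beside 8.04% of all tested miRNAs in that direction. ICH 3 held 7118 CPM of miR-205-5p, against 1028 to 2551 CPM in the other ICH libraries and 1115 to 1885 CPM in ICH_Sham. Without ICH 3 the interactions were -0.72 and -0.44.

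miR-674-3p, which belongs to none of the lists, fell in MCAO. It was at 949.8, 636, 851, 942 and 1259 CPM in MCAO and at 2015, 1437, 1552, 1879 and 1598 CPM in MCAO_Sham, with no overlap, as 1 of 4 among all 199 miRNAs that lay wholly below MCAO_Sham. In ICH it was at 1119, 1543, 1856, 1060 and 1871 CPM and in ICH_Sham at 1680, 1352, 1356, 1328 and 1859 CPM, and these groups overlapped. The interaction was -0.85 ± 0.30 (adjusted p = 0.145), with an MCAO effect of -0.87 ± 0.21 (adjusted p = 0.0110, edgeR) and an ICH effect of -0.02 ± 0.21. Without MCAO 2 the MCAO effect was -0.80 and did not pass (adjusted p = 0.0806). miR-378a-5p, at 1.30 ± 0.46, miR-672-5p, at 1.25 ± 0.49, miR-30c-5p, at 0.66 ± 0.26, and miR-6538, at 1.25 ± 0.55, were above 0 among the 20 smallest p. miR-199a-5p, at -1.06 ± 0.44, was below 0. None of these passed (adjusted p = 0.145, 0.223, 0.239, 0.288 and 0.272 in that order, edgeR).

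miRNAs of the imprinted Dlk1-Dio3 domain, which are made from the maternal chromosome and are prominent in brain, muscle and placenta, leaned below 0. Of 13 kept members 12 were below 0, beside 102 of all 199, with a median of -0.53. Of the 13, 2 had an unadjusted p under 0.05, beside 8.04% of all tested miRNAs in that direction. They were miR-134-5p, at -1.38 ± 0.45 (adjusted p = 0.137), and miR-433-3p, at -0.98 ± 0.43 (adjusted p = 0.288, edgeR). miR-134-5p was at 227, 205.5, 322, 322 and 279.8 CPM in MCAO and at 816, 306, 277, 361 and 487 CPM in MCAO_Sham, against 169.9, 159, 596, 236 and 387 CPM in ICH and 218.5, 242, 207, 109 and 176 CPM in ICH_Sham. The 2 stroke groups overlapped and MCAO_Sham lay above all of ICH_Sham. The sham difference was 1.19 ± 0.33 and did not pass (adjusted p = 0.0842, edgeR), and MCAO minus ICH was -0.19 ± 0.31. The neighbouring genes of the domain are thought to share a primary transcript, so its members are not independent of each other.

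The muscle miRNAs showed the same arrangement in the opposite direction. miR-1a-3p, made in skeletal and heart muscle, was at 18128, 29926, 15442, 29623 and 9183 CPM in MCAO and at 7011, 14956, 8244, 10895 and 4012 CPM in MCAO_Sham. It was at 14311, 25252, 13352, 36175 and 12832 CPM in ICH and at 20665, 24803, 26496, 19222 and 14598 CPM in ICH_Sham. MCAO, ICH and ICH_Sham overlapped throughout, and MCAO_Sham was the low group. Its interaction was 1.24 ± 0.48 (adjusted p = 0.223), with MCAO minus ICH at 0.01 ± 0.34 and a sham difference of -1.23 ± 0.34 (adjusted p = 0.0842, edgeR). The rise of miR-1a-3p in MCAO over its sham was 1.18 ± 0.34 and passed (adjusted p = 0.0257, edgeR), whereas its ICH effect was -0.05 ± 0.34. That rise passed in 16 of the 20 fits that left out 1 library. Over 15 fits with other settings, among them those within each index tag range, it spanned 0.32 to 2.03 and passed in 11. miR-206-3p, the skeletal muscle miRNA, had an interaction of 0.75 ± 0.38 and a sham difference of -0.93 ± 0.27 (adjusted p = 0.0884). All 5 kept muscle miRNAs were above 0, beside 97 of all 199, with a median of 0.65. Of the 5, 1 had an unadjusted p under 0.05, beside 8.54% of all tested miRNAs in that direction. Summed over the list, the libraries spanned 20732 to 62948 CPM in MCAO, 18164 to 43620 in MCAO_Sham, 29082 to 67864 in ICH and 43664 to 65396 in ICH_Sham. The part of muscle in the other interactions was not tested.

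**Figure D4:**
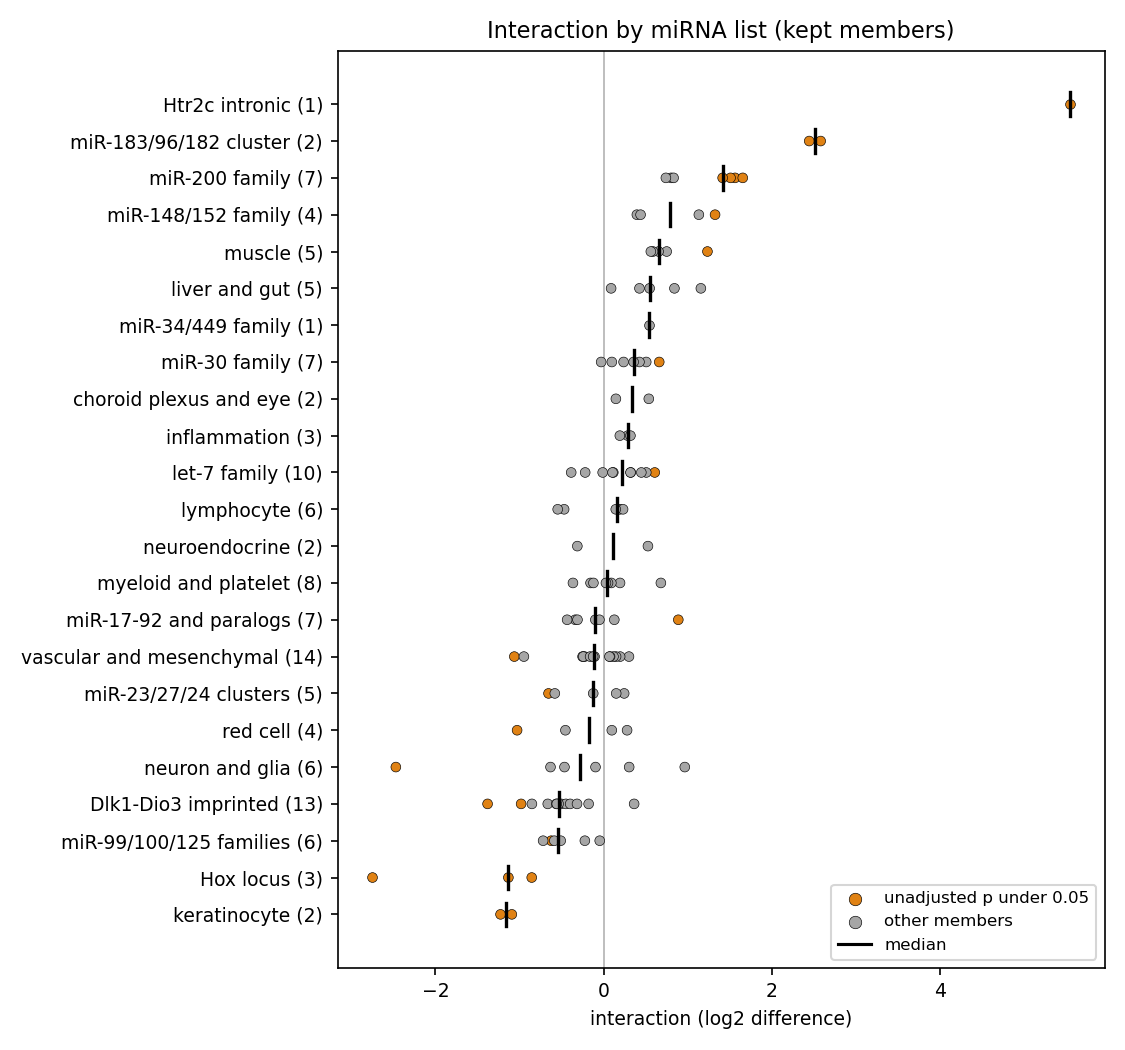
Interaction (log2) of each kept member of the miRNA lists, 1 row per list, with the list's median marked. The miR-200 family (median 1.42) and the muscle list (median 0.65) lie wholly above 0, the Hox (median -1.13) and keratinocyte (median -1.16) lists wholly below, and most blood cell lists spread on both sides of 0.

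Markers of blood cells had interactions on both sides of 0. miR-451a, the main red cell miRNA, had an interaction of 0.10 ± 0.44 (95% interval -0.80 to 0.99), and the 4 kept red cell miRNAs had a median of -0.18, 2 above 0 and 2 below. miR-486-5p, counted together with miR-3107-5p, was the most abundant of them, at a mean of 24899 CPM. It had an interaction of -0.45 ± 0.37 (adjusted p = 0.574). It fell by 0.98 ± 0.27 in MCAO over its sham (adjusted p = 0.0187, edgeR), a fall that passed in 16 of the 20 fits that left out 1 library. Its ICH effect was -0.53 ± 0.26 (adjusted p = 0.462). Of the 4, miR-486-3p, at -1.03 ± 0.48 (adjusted p = 0.297, edgeR), had an unadjusted p under 0.05. Its sham difference was 1.40 ± 0.34 (adjusted p = 0.0628), and MCAO minus ICH was 0.37 ± 0.33. The 6 kept lymphocyte miRNAs, with miR-150-5p and the miR-181 family, had a median of 0.16, and the 8 kept myeloid and platelet miRNAs, with miR-223-3p, had a median of 0.04. In neither list did a member have an unadjusted p under 0.05. As a measure of red cell content, miR-451a was divided by miR-23a-3p, and the log2 of this ratio spanned -1.83 to -0.04 in MCAO, -3.22 to -0.64 in MCAO_Sham, -3.41 to -1.41 in ICH and -2.28 to -1.76 in ICH_Sham. Its difference of differences was 1.12 (exact two-sided permutation test over 63504 arrangements, adjusted p = 0.358 over 3 values). That of the log2 total count was 0.63 (adjusted p = 0.358), and that of miR-486-5p over miR-23a-3p was 0.26 (adjusted p = 0.628). The model names were exchanged within the stroke and within the sham libraries. These p-values therefore refer to models that differ in neither set, not to equal stroke effects alone. The denominator moved as well, with an interaction of -0.65 ± 0.32 for miR-23a-3p (adjusted p = 0.297, edgeR). With miR-103-3p in its place the value was 0.519 for miR-451a and -0.346 for miR-486-5p (exact permutation test, adjusted p = 0.429 each). With the ratio to miR-23a-3p as a covariate the interaction of miR-1298-5p was 5.02 (adjusted p = 0.0935) and that of miR-615-3p was -1.86 (adjusted p = 0.157), so neither call stood.

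Markers of brain cells differed widely in depth. miR-124-3p, the neuronal miRNA, had 12, 6, 27 and 58 summed counts in MCAO, MCAO_Sham, ICH and ICH_Sham and was not tested. ICH 4 held 15 of the 27 counts in ICH, and ICH_Sham 4 held 51 of the 58 in ICH_Sham. Summed over the kept members of the list, libraries spanned 12510 to 17649 CPM in MCAO, 8585 to 16047 in MCAO_Sham, 12163 to 14841 in ICH and 13033 to 17009 in ICH_Sham. Most of this sum was miR-128-3p, at a mean of 13308 CPM, so these ranges mainly describe 1 miRNA. Of the 6 kept neuron and glia miRNAs 2 were above 0 and 4 below, with a median of -0.28. The 1 with an unadjusted p under 0.05 was miR-219a-2-3p of oligodendrocytes, the cells that make myelin, at -2.47 ± 1.19 (adjusted p = 0.297, edgeR). Its libraries spanned 7.67 to 191 CPM in MCAO, 16.7 to 228 in MCAO_Sham, 9.35 to 271 in ICH and 0 to 52.7 in ICH_Sham, so all groups overlapped. miR-210-3p, which hypoxia induces in many cell types, had 42, 26, 47 and 35 counts in MCAO, MCAO_Sham, ICH and ICH_Sham and was not tested.

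Liver and gut miRNAs were above 0 in all 5 kept members, beside 97 of all 199, with a median of 0.55. No member had an unadjusted p under 0.05. The interaction of miR-122-5p, the main miRNA of hepatocytes, was 1.16 ± 0.99, and without ICH_Sham 1, which held its highest level, it was 0.040. The miR-148 family holds the most abundant miRNA of these sera. Its 4 kept members were also all above 0, again beside 97 of all 199, with a median of 0.79. miR-148a-3p had an interaction of 1.13 ± 0.57 (adjusted p = 0.301) and its partner arm miR-148a-5p one of 1.33 ± 0.59 (adjusted p = 0.288, edgeR). Both arms rose in MCAO over its sham, by 1.58 ± 0.41 and 1.45 ± 0.40 (adjusted p = 0.0162 and 0.0187). MCAO 2 was the highest library for both, and without it the interactions were 0.34 and 0.60, and the MCAO effects were 0.77 and 0.70, short of the threshold (adjusted p = 0.183 and 0.221). With MCAO_Sham 7 left out neither arm passed in MCAO either (adjusted p = 0.0589 and 0.0603), nor did miR-148a-5p without MCAO_Sham 1 (adjusted p = 0.0514). Over 15 fits with other settings, among them those within each index tag range, the interaction of miR-148a-3p spanned 0.06 to 1.87 and passed in 0. That of miR-148a-5p spanned -0.16 to 2.17 and passed in 1 of 14 such fits. The families of miR-99, miR-100, miR-125a and miR-125b lie beside let-7 genes. All 6 of their kept members were below 0, beside 102 of all 199, with a median of -0.55. Of the 6, 1 had an unadjusted p under 0.05, beside 8.04% of all tested miRNAs in that direction.

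For miR-34c-5p, which rose in MCAO, a difference between the models was not detectable. This p53-induced miRNA, also known from ciliated cells, was at 114, 190.4, 292, 190.1 and 153 CPM in MCAO and at 33.3, 47.1, 45.4, 75.9 and 52.9 CPM in MCAO_Sham, with no overlap. In ICH it was at 129.9, 122, 49.6, 46.1 and 63.2 CPM and in ICH_Sham at 45.2, 33.4, 24.8, 9.91 and 35.3 CPM, again with no overlap. Of all 199 miRNAs, 5 lay wholly above MCAO_Sham in MCAO and 4 wholly below. In ICH 1 lay wholly above ICH_Sham and 1 wholly below. miR-34c-5p had few counts, 2 to 9 in the MCAO_Sham libraries and 1 to 6 in the ICH_Sham libraries. It rose by 1.91 ± 0.39 in MCAO over its sham (adjusted p = 0.00307), its ICH effect was 1.36 ± 0.44 (adjusted p = 0.441), and the interaction was 0.54 ± 0.63 (95% interval -0.75 to 1.83; adjusted p = 0.640, edgeR). That interval covers a difference of more than 1 log2 unit, so the data do not show that the 2 models act alike on it. The inflammation miRNAs, with miR-21a-5p and miR-146a-5p, had 3 of 3 kept members above 0 and a median of 0.29. The let-7 family had 7 of 10 above 0 and a median of 0.22. Both counts stand beside 97 of all 199 above 0.

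Grouping by seed and by hairpin showed how far related miRNAs had interactions of 1 sign. Of the single names among the kept entries 172 were found in the RefSeq miRNA table, and 22 seeds were shared by 2 or more kept miRNAs, 58 miRNAs in all. In 17 of these 22 seeds all members had the same sign. Only the 170 kept entries with a usable sequence were grouped, so some kept relatives were left out. The seed GUAAACA thus counts as 1 sign without miR-30b-5p and miR-30d-5p, while the whole miR-30 family had 6 of 7 above 0. The 3 kept miRNAs with seed AAUACUG (miR-200b-3p, miR-200c-3p and miR-429-3p) and the pair with AACACUG, printed above, had medians of 1.51 and 1.54, and the miR-10 pair with ACCCUGU had a median of -0.99. miRNAs with a common seed often differ by few bases and can share reads, which the counting may split between them. Of 26 hairpins with both arms kept, 19 had arms of the same sign, and the largest gap between arms was 1.13. Over all 199 miRNAs 97 were above 0 and 102 below, so many pairs would agree in sign by chance. The agreement of signs by seed or hairpin was not tested.

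**Figure D5:**
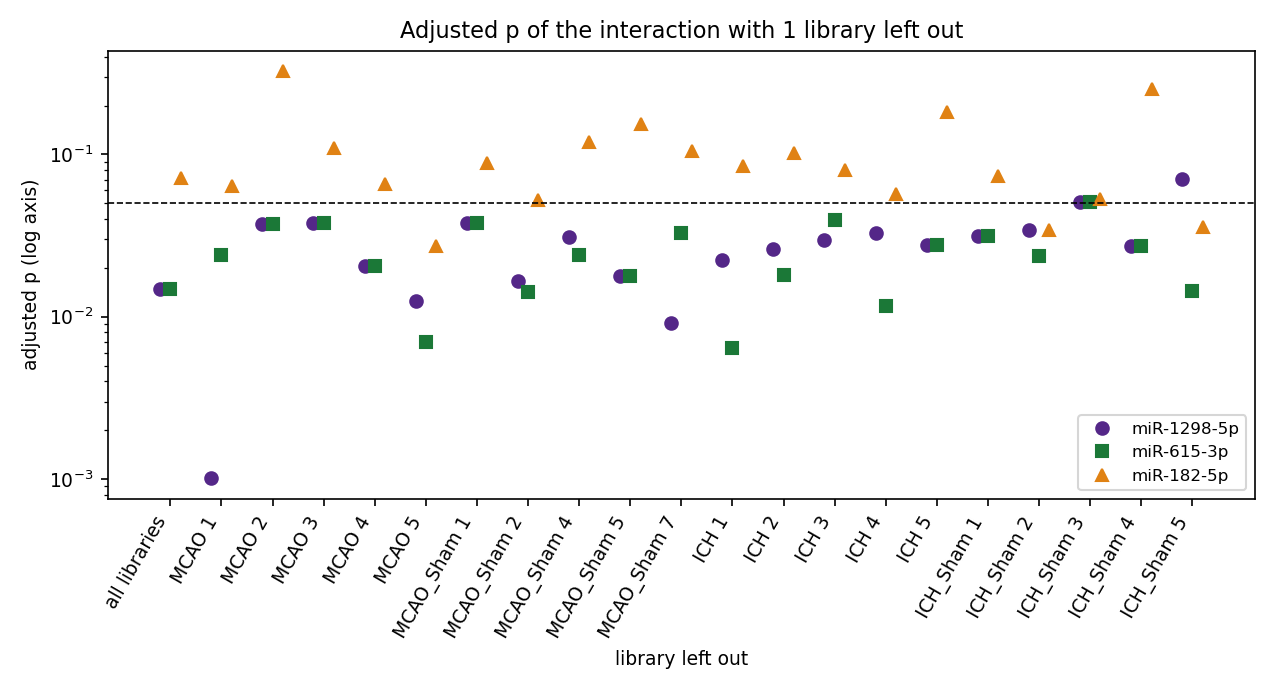
Adjusted p (log axis) of the interaction of miR-1298-5p, miR-615-3p and miR-182-5p with all libraries and with each of the 20 libraries left out in turn; the dashed line is the threshold of 0.05. Without ICH_Sham 3 both called miRNAs lie just above the line, and miR-182-5p lies below it without MCAO 5, ICH_Sham 2 or ICH_Sham 5.

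The signs of both called interactions were the same in all 20 fits that left out 1 library. miR-1298-5p stayed between 5.21 and 6.22 and miR-615-3p between -3.07 and -2.18, but the calls were close to the threshold. Without ICH_Sham 3 neither passed (adjusted p = 0.0511 each, edgeR), and without ICH_Sham 5 miR-1298-5p did not (adjusted p = 0.0710). Both miRNAs had too few counts to be kept under a minimum count of 30.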

How the data were processed

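Serum small RNA libraries were counted per mature miRNA. The authors deposited whole-number counts, not normalized, and the submitters' processing notes name Bowtie 0.12.9. Genome build, miRNA annotation, trimming and the handling of multi-mapping reads: not given in the sources used here. Reads carry no molecular identifiers. The 2 runs of a library were summed, since their counts agreed within sampling noise (0.792 to 1.27 chi-square units for each degree of freedom).

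A robust quasi-likelihood model (edgeR 4.0.16, R 4.3.3) with 1 mean for each group took in all 25 libraries, the Naive ones entering only the estimate of the spread (20 residual and a median of 8.90 prior degrees of freedom; common coefficient of biological variation 0.297). filterByExpr with a minimum count of 10 kept 199 miRNAs, libraries were TMM-scaled, and p-values were adjusted by Benjamini-Hochberg over all 199 with a threshold of 0.05. A standard error is the size of the log2 fold change over the square root of the F statistic; errors and intervals include the variation between libraries. Values per library (log2 total and 2 red cell ratios) were compared by exact permutation of the model names within the 10 stroke and the 10 sham libraries. That test is exact for models that differ in neither set, so it does not test the difference of differences alone. Alternatives used DESeq2 1.42.0, limma 3.58.1, other scalings, filters, runs, depths, covariates and sets of libraries. Figures used Python 3.11.15 and matplotlib 3.10.9.

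The named miRNAs were chosen from those that passed, the 20 with the smallest interaction p, a few reference miRNAs and the Htr2c list. Of each list, the member with the smallest p and the one with the highest mean CPM were candidates too. Not all list members that this rule gives are printed. Names outside the rule, such as members printed to complete a family, were added after their values were seen. The members, lists and rule were chosen with earlier results of these data known. Lists overlap in part and are described by counts and medians, with no list test. Sequences and positions are from RefSeq and the GRCm38.p6 annotation. The sequences of miRNAs that map to a chromosome excluded from printing are not reported here.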

Additional observations from a re-analysis of the deposited data

Results flagged for a closer look

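Among the values per library of the 20 miRNAs with the smallest interaction p and the 3 library values, 12 of 92 group values had a highest or lowest library that lay far from the rest of its group of 5. For independent, normally distributed values chance gives about 1 in 20. CPM values were not log-transformed here and some of these miRNAs are related, so that share is only a rough guide. miR-182-5p reached 3803 CPM in MCAO 2 and 3698 CPM in ICH_Sham 4. miR-183-5p reached 1299 CPM in MCAO_Sham 1 and 7068 CPM in ICH_Sham 4. miR-10a-5p was highest of its group in MCAO 5, at 37165 CPM, and lowest of its group in MCAO_Sham 2, at 29111 CPM. miR-10b-5p was lowest of its group in ICH_Sham 1, at 35318 CPM. miR-203-3p was highest of its group in ICH_Sham 2, at 9325 CPM, and miR-141-3p in MCAO_Sham 2, at 141 CPM. ICH 3 stood apart from the other ICH libraries in 3 values: miR-205-5p at 7118 CPM, miR-6538 at 19.9 CPM and a log2 ratio of miR-486-5p to miR-23a-3p of -0.880. The effects of the 2 models differed by the test of the interaction itself for miR-1298-5p, at 5.55, and for miR-615-3p, at -2.75.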

How the results depend on the processing

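The 2 calls, of the same 2 miRNAs, were made also with limma voom, DESeq2 size factors, library totals alone, no count filter, the 20 libraries alone, the index tag range as a block and without the 3 libraries of lowest TMM factor; DESeq2 made 3, adding miR-182-5p. Pairing of the libraries by the replicate numbers in the labels was not detected. Of 27 same-number pairs 7 had deviations correlated above 0.1 (median r 0.005), and 4 of 20 libraries were best matched by their own number. These values do not show that the design was unpaired. The fit with the replicate block made the same 2 calls. The count was 1 with run 1 alone, 0 with run 2 alone, 0 with all libraries thinned to 38393 counts, 0 with the red cell ratio as a covariate and 0 of 135 with a minimum count of 30, which kept neither called miRNA; only for that filter does the construction show the cause, and for the others the cause was not tested. With the MCAO part within the lower index tags there were 9 calls, and within the higher tags 1. Both alternatives were chosen after seeing the data. At an unadjusted p under 0.05 there were 42 miRNAs within the lower tags, 15 within the higher tags and 15 with the red cell covariate, against 33 in the main fit. With 1 library left out the count of calls was 0 to 9, with 0 without ICH_Sham 3, 9 without MCAO 5 and 3 without ICH 4 or ICH_Sham 2. The differences of differences then spanned 0.332 to 0.920 for the log2 total, 0.717 to 1.41 for the miR-451a ratio and 0.097 to 0.375 for the miR-486-5p ratio, which was -0.346 with miR-103-3p in place of miR-23a-3p, as the miR-451a ratio was 0.519. Values that changed sign and moved by more than their standard error had not passed: the interaction of miR-451a was -0.36 with the red cell covariate and -0.35 within the lower tags, and within the higher tags that of miR-27b-3p was -0.079 and that of miR-148a-5p -0.16. The MCAO effect of miR-6538 was -0.32 with run 1 alone, -0.26 with the covariate and -0.26 within the lower tags. That of miR-205-5p was 0.11 with the covariate, and that of miR-672-5p was -0.32 within the higher tags. The ICH effect of miR-141-3p was -0.58 after thinning, and that of miR-183-5p spanned -1.22 to 0.44 over the fits without 1 library, 0.44 without ICH_Sham 4. The cause of these changes was not tested. Of the other values of single miRNAs under these alternatives, 3004 kept their sign and side of the threshold, 69 changed sign by less than 1 standard error without a call, 51 lost their call and 46 gained one. Depth limits the called miRNAs: the smallest summed count of a group was 8 for miR-1298-5p and 59 for miR-615-3p.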
